A study of Mus musculus with 20 samples.

Results

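Cholesterol synthesis after squalene is described here through 9 genes, Sqle, Lss, Cyp51, Msmo1, Nsdhl, Hsd17b7, Ebp, Sc5d and Dhcr7. They were chosen by symbol and found in the deposited gene table through its Ensembl identifiers, where they are 9 of 46517 genes. RNA sequencing measured mRNA in 20 libraries of white matter from Zdhhc9 knockout (KO) and wild-type (WT) mice. Of these, 5 knockout and 4 wild-type libraries came from optic nerve (ON), through which the axons of the retina reach the brain. The other 6 knockout and 5 wild-type libraries came from corpus callosum (CCg in the library names), which connects both hemispheres. No further allele and no treatment apart from anaesthesia is given for either genotype, and strain, age and sex are not stated. The sample labels call the mice Zdhhc9 knockouts, whereas the series text speaks of a knockdown. The Zdhhc9 product is a palmitoyltransferase, which adds a fatty acid to cysteines of target proteins. According to the title of the study the human gene is tied to an X-linked form of intellectual disability, and the mouse is used to look at oligodendrocytes and myelin. The comparisons below ask how the 9 genes differ with genotype in each tract and between the tracts.

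Cells build cholesterol from acetyl-CoA through mevalonate and the linear hydrocarbon squalene, which is then oxidised, folded into the first sterol, lanosterol, and trimmed to cholesterol. Transcription of most of these enzymes is under the sterol-sensing SREBP2 pathway, which is active when membrane sterol is low. Cholesterol does not cross the blood-brain barrier in useful amounts and is a main lipid of myelin, so that myelinating oligodendrocytes and other brain cells make their own. Squalene epoxidase (Sqle) adds the oxygen and lanosterol synthase (Lss) closes the rings. Cyp51 removes a methyl group from the sterol core, and Msmo1, Nsdhl and Hsd17b7 act in sequence to take off the paired methyl groups of the first ring. Ebp moves a double bond, Sc5d introduces another, and Dhcr7 reduces a double bond in the last steps.

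Promoter windows are shown for the genes whose knockout and wild-type libraries did not overlap in a tract, taken from a table of RefSeq promoters (assembly GRCm38.p6): Cyp51, Msmo1, Sc5d and Dhcr7 in corpus callosum and Nsdhl in optic nerve. Each runs 5′ to 3′ on the strand of the gene over 300 bases, 250 before the start and 50 from it. Capitals mark CCAAT, the NF-Y box, and GGGCGG, the GC box, or their reverse complements ATTGG and CCGCCC.
Cyp51, chr5:4104648-4104947, minus strand: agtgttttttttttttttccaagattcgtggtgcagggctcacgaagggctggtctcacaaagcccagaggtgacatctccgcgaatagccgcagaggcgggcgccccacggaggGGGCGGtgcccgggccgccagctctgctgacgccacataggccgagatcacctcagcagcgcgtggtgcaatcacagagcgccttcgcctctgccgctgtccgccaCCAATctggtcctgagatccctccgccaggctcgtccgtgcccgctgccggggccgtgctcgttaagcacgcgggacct
Msmo1, chr8:64733529-64733828, minus strand: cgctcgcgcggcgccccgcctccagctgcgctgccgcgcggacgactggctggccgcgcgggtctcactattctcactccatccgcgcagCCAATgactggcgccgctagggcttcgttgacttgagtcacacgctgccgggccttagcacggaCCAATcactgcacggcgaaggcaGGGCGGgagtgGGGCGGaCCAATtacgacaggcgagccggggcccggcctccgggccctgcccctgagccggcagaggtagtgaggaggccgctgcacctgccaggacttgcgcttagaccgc
Nsdhl, chrX:72918271-72918570, plus strand: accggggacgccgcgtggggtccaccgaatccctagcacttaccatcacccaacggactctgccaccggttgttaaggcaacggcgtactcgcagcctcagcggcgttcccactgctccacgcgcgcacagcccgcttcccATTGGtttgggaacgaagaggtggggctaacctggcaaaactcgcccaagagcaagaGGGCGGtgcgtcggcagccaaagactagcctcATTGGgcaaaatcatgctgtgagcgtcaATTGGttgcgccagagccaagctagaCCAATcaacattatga
Sc5d, chr9:42264251-42264550, minus strand: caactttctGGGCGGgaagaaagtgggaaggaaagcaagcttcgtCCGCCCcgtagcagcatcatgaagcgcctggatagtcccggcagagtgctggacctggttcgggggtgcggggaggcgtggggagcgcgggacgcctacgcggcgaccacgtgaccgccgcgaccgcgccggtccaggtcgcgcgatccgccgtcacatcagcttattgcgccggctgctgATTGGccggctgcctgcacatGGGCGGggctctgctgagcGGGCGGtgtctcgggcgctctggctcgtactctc
Dhcr7, chr7:143822917-143823216, plus strand: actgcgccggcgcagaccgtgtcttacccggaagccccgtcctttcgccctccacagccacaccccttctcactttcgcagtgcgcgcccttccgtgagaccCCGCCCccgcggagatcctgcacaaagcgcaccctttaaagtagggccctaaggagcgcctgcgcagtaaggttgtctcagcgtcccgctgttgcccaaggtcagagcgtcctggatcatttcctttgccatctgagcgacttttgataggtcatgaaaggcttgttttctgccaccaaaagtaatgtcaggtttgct

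A window was found for 8 of the 9 genes (all but Sqle), and Dhcr7 had more than 1, of which the first is printed. The sterol regulatory element, searched only in the form TCACNCCAC on both strands, was in 0 of the 8 windows and in 1.24% of all 32851 windows of this length. Variant forms of the element were not searched, so this count does not show that the windows lack it. CCAAT was in 7 of the 8, counting the first window of each gene, and in 37.4% of all windows. The exception was Dhcr7, for which a later window holds CCAAT at 2 places. GGGCGG was in 8 of 8 and in 35.7% of all windows. In the printed windows, CCAAT matches began 29 bases before the start in Cyp51 and 160, 96 and 55 bases before it in Msmo1. No matches overlapped each other in the printed windows, and they describe the letters only.

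The libraries held between 15401130 and 26095622 estimated counts each, and levels are given as CPM, counts relative to the total of the library, with TMM factors over all 20 libraries. Zdhhc9 itself lay between 35.2 and 50.6 CPM in knockout and between 114.7 and 152.6 CPM in wild-type optic nerve. It lay between 41.2 and 57.0 CPM in knockout and between 153.7 and 198.4 CPM in wild-type corpus callosum, so each knockout library was below each wild-type library of its tract. Markers of mature oligodendrocytes, a list of 12 genes such as Mbp and Mog, were present in every library, with a summed level of at least 33552 CPM. The optic nerve libraries also carried fibroblast markers, 2856 to 5305 CPM summed over 7 genes, against 33.8 to 92.2 CPM in corpus callosum. Markers of Schwann cells, the myelinating cells of peripheral nerve, summed to between 4.03 and 14.6 CPM over 5 genes in all 20 libraries. The labels give the libraries as separate samples, and p-values measure the spread between them. In bulk tissue, fewer cells of a type and less RNA per cell cannot be told apart.

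All 9 genes were tested in every comparison. Msmo1, Sqle and Cyp51 were the most abundant per length, and Nsdhl and Hsd17b7 the least, in each of the 4 groups. Here CPM were divided by the length in kilobases of the longest coding transcript in the annotation. Which transcripts were present was not determined, and the order depends on the length chosen. Without the division Cyp51 had the highest and Nsdhl the lowest mean in each of the 4 groups. In knockout optic nerve these were 183 and 29.5 CPM. In knockout optic nerve the levels per kilobase were 78.7 ± 12.7 for Msmo1, 60.9 ± 8.80 for Sqle, 46.5 ± 7.07 for Cyp51, 31.4 ± 2.92 for Dhcr7, 24.8 ± 2.17 for Lss, 22.1 ± 3.53 for Sc5d, 21.9 ± 1.92 for Ebp, 13.6 ± 1.84 for Nsdhl and 8.19 ± 0.549 for Hsd17b7 (SD, n = 5). Wild-type optic nerve had 102 ± 10.9 for Msmo1, 71.2 ± 11.2 for Sqle, 55.6 ± 8.71 for Cyp51, 34.5 ± 6.16 for Dhcr7, 29.3 ± 4.54 for Sc5d, 26.2 ± 4.87 for Lss, 22.7 ± 1.07 for Ebp, 17.5 ± 1.37 for Nsdhl and 9.67 ± 1.37 for Hsd17b7 (SD, n = 4). The order from Msmo1 through Sqle and Cyp51 to Dhcr7 at the top, and from Nsdhl to Hsd17b7 at the bottom, was the same in both genotypes and both tracts. Lss, Sc5d and Ebp lay between these and changed places between groups. In wild-type optic nerve the mean ± SD overlapped for Sqle and Cyp51, Dhcr7 and Sc5d, Sc5d and Lss, and Lss and Ebp. The genes were measured in the same libraries, so this overlap cannot show that neighbours had equal levels. Differences between genes within a library were not tested. Knockout corpus callosum had 39.5 ± 4.13 for Msmo1, 30.0 ± 2.72 for Sqle, 24.7 ± 1.57 for Cyp51 and 18.8 ± 2.87 for Dhcr7, with Hsd17b7 lowest at 5.03 ± 0.585 (SD, n = 6). In wild-type corpus callosum these 5 stood at 57.5 ± 8.86, 41.0 ± 3.65, 34.2 ± 3.06, 25.8 ± 2.54 and 5.68 ± 0.575 (SD, n = 5). The middle genes Lss, Sc5d and Ebp were between 12.7 and 14.7 in knockout and between 17.01 and 17.6 in wild-type corpus callosum.

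**Figure D1:**
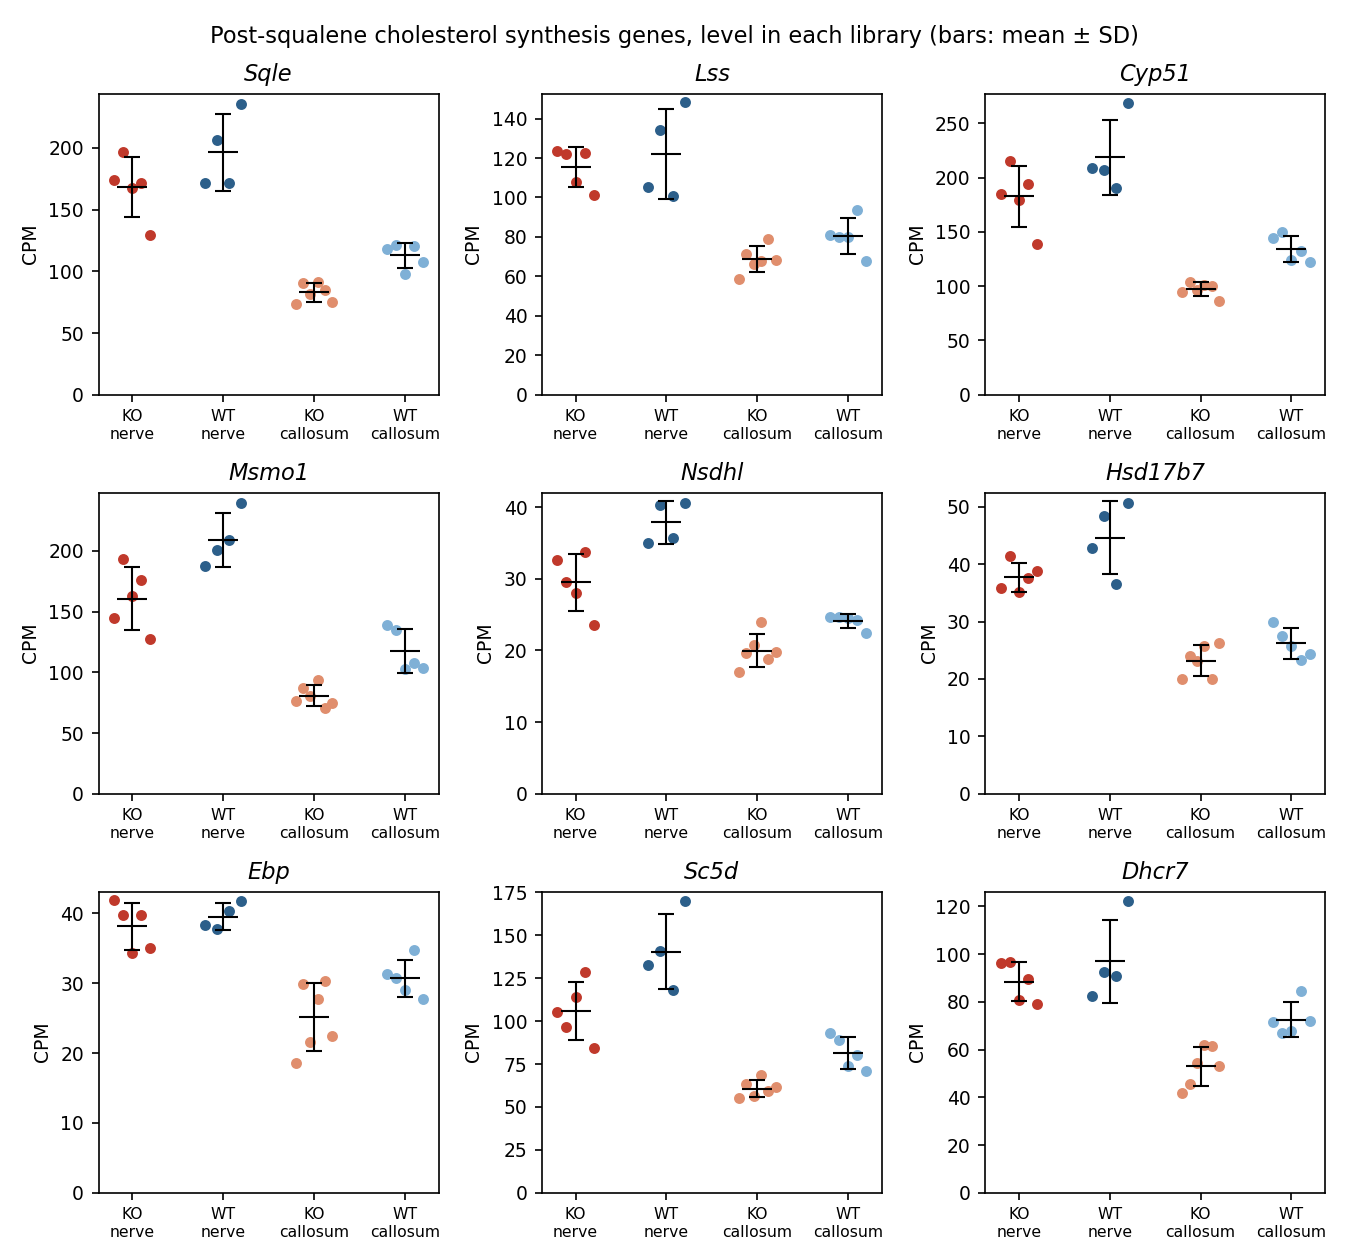
Level of each of the 9 genes in every library, in CPM (y axis, from 0), for knockout (KO) and wild-type (WT) optic nerve and corpus callosum; each point is a library and the bars are the mean ± SD. The knockout callosum points of Sqle, Cyp51, Msmo1, Sc5d and Dhcr7 all lie below the wild-type callosum points, and optic nerve points lie above callosum points for most genes.

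In corpus callosum the mean level of all 9 genes was lower in knockout than in wild type, at 68.6% to 88.6% of the wild-type mean, but 0 of 9 passed the test over all genes. Sqle, Cyp51, Msmo1, Sc5d and Dhcr7 were the 5 whose knockout libraries all lay below every wild-type library. The question here is whether loss of Zdhhc9 goes with another level of the enzymes that finish cholesterol.

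Sqle (ENSMUSG00000022351.13, GRCm38 chromosome 15, 59315077 to 59331192), which opens the oxygen-dependent stretch, had between 73.3 and 91.2 CPM in the 6 knockout libraries, with a median of 83.2. The 5 wild-type libraries had 98.0, 107, 118, 120 and 122 CPM. The groups did not overlap, with a gap between the highest knockout and the lowest wild-type library. The log2 fold change was -0.49 (SE 0.10, adjusted p = 0.139, edgeR quasi-likelihood test with Benjamini-Hochberg adjustment). Lss (ENSMUSG00000033105.11, chromosome 10, 76531588 to 76557138), the ring-closing enzyme, had between 58.7 and 78.8 CPM in knockout libraries, with a median of 68.2, and 68.0, 80.1, 80.1, 81.0 and 93.5 CPM in wild type. Its groups overlapped through the lowest wild-type library, and its log2 fold change was -0.27 (SE 0.10, adjusted p = 0.390).

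Cyp51 (ENSMUSG00000001467.5, chromosome 5, 4081145 to 4104746), the demethylase of lanosterol, stood at 86.8 to 104 CPM in knockout libraries, with a median of 98.5, and at 123, 124, 132, 144 and 150 CPM in wild type. Its mean in knockout was 72.3% of the wild-type mean, 97.3 ± 6.18 against 135 ± 12.01 CPM (SD, n = 6 and 5), the groups did not overlap, and the log2 fold change was -0.51 (SE 0.09, adjusted p = 0.112). By p-value it ranked 13 of 15519 genes tested. Msmo1 (ENSMUSG00000031604.9, chromosome 8, 64718139 to 64733792), the oxidase that starts removal of the paired methyl groups, had the largest fold change of the 9 in this tract. Its knockout libraries lay between 70.9 and 93.5 CPM, with a median of 78.8, and the wild-type libraries at 103, 104, 107, 135 and 139 CPM. They did not overlap, and the knockout mean was 68.6% of the wild-type mean, or -0.58 as log2 fold change (SE 0.12, adjusted p = 0.139).

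Nsdhl and Hsd17b7, the dehydrogenase and the reductase that complete each methyl removal, had smaller fold changes. Nsdhl (ENSMUSG00000031349.4, chromosome X, 72918557 to 72958514) had between 16.9 and 23.9 CPM in knockout libraries and 22.4, 24.2, 24.5, 24.6 and 24.7 CPM in wild type. A single wild-type library lay within the knockout range, and the log2 fold change was -0.31 (SE 0.09, adjusted p = 0.287). Hsd17b7 (ENSMUSG00000026675.11, chromosome 1, 169949535 to 169969241) had between 20.02 and 26.2 CPM in knockout libraries and between 23.3 and 30.0 CPM in wild type. These groups overlapped in several libraries, and its log2 fold change of -0.22 (SE 0.10, adjusted p = 0.437) was the smallest of the 9.

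Among the last steps, Ebp (ENSMUSG00000031168.13, chromosome X, 8185329 to 8193512), the double-bond isomerase, had between 18.6 and 30.3 CPM in knockout libraries and between 27.7 and 34.8 CPM in wild type, with overlap. Its log2 fold change was -0.33 (SE 0.14, adjusted p = 0.406), and its spread among knockout libraries was the widest of the 9 relative to its mean. Sc5d (ENSMUSG00000032018.12, chromosome 9, 42251595 to 42264256), the desaturase, had between 55.1 and 68.6 CPM in knockout libraries, with a median of 60.4, and 71.2, 73.9, 80.0, 89.0 and 93.0 CPM in wild type. There was no overlap, and the log2 fold change was -0.46 (SE 0.10, adjusted p = 0.180). Dhcr7 (ENSMUSG00000058454.13, chromosome 7, 143823145 to 143848410), the reductase whose human counterpart is mutated in Smith-Lemli-Opitz syndrome, had between 41.8 and 61.8 CPM in knockout libraries, with a median of 53.8. Its wild-type libraries had 67.0, 67.7, 71.4, 72.0 and 84.7 CPM, again without overlap, and the log2 fold change was -0.49 (SE 0.11, adjusted p = 0.217).

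As a group, 0 of 9 passed at an adjusted p under 0.05 (0.0387% of the 15519 genes tested passed, 6 genes in all), and 8 of 9 were lower at an unadjusted p under 0.05 (6.89% of all genes). DESeq2 called 5 of the 9, all lower, among 175 genes called in all, and limma-voom with sample quality weights 8 of the 9, all lower, among 2786 genes. The 5 genes without overlap compare with 0.651% of all genes in which every knockout library was below every wild-type library. A negative log2 fold change was found in 9 of 9, against 52.5% of all genes, and the median was -0.46 against -0.01 over all genes. The summed level of the 9 genes was 455 to 562 CPM in knockout and 619 to 733 CPM in wild-type libraries, which did not overlap. Over 11 edgeR fits that each left out 1 library, 0 to 2 of the 9 and 2 to 41 genes in all were called. Both highest counts came without the wild-type library WT_CCg_685232, where Sqle and Cyp51 had an adjusted p of 0.0455 each. It was the only such fit that called any of the 9.

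Levels of cell type markers in this tract are given beside these values, and none of the markers named passed the test. All 12 mature oligodendrocyte markers had a negative log2 fold change in knockout callosum (median -0.55, 0 past the test), with Hapln2, a matrix protein of the node of Ranvier, at -1.14 (SE 0.23, adjusted p = 0.139) and the gap junction gene Gjb1 at -0.63 (SE 0.18, adjusted p = 0.287). Their summed level was 33552 to 62668 CPM in knockout and 52330 to 83691 CPM in wild-type libraries, which overlapped. All 10 neuron markers had a positive log2 fold change (median 0.65, 0 past the test), with Map2, a microtubule protein of dendrites, at 0.59 (SE 0.22), and Nefm, a neurofilament subunit, at 0.70 (SE 0.29). Their summed levels were 1171 to 4367 CPM in knockout and 1023 to 3059 CPM in wild type. The 8 microglia markers were all negative (median -0.36, 0 past the test), with Itgam, an integrin subunit, at -0.39 (SE 0.09), and C1qa, a complement subunit, at -0.46 (SE 0.11). They summed to 401 to 468 CPM in knockout and 501 to 573 CPM in wild type. With the mature oligodendrocyte level as a covariate the log2 fold changes were -0.25 for Sqle, -0.30 for Cyp51, -0.35 for Msmo1, -0.27 for Sc5d and -0.40 for Dhcr7. For Ebp the covariate left a log2 fold change of -0.00055, and the median of the 9 was -0.25. With the neuron level as a covariate that median was -0.37, and 0 of 9 were called in either fit.

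**Figure D2:**
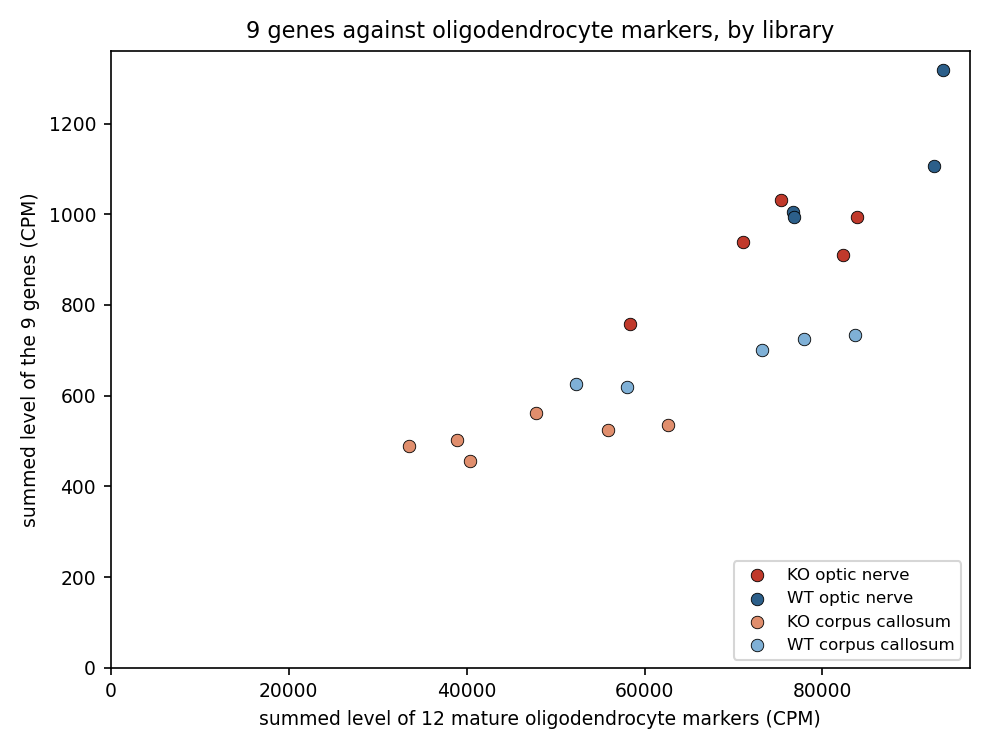
Summed level of the 9 genes (y axis, CPM) against the summed level of 12 mature oligodendrocyte markers (x axis, CPM), 1 point per library, coloured by group; both axes start at 0. Knockout callosum libraries lie at 455 to 562 CPM on the y axis and wild-type callosum libraries at 619 to 733 CPM, while on the x axis the callosum genotypes overlap.

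Per 1000 CPM of oligodendrocyte markers, the 9 genes together held 8.56 to 14.6 CPM in knockout callosum, with a median of 11.5, and 8.76 to 11.96 CPM in wild-type callosum, with a median of 9.56. On this ratio the genotypes overlapped, and the order of the medians was opposite to that of the levels. In optic nerve it was 11.1 to 13.7 CPM in knockout, with a median of 13.0, and 11.97 to 14.1 CPM in wild type, with a median of 13.0. The part of these markers in the differences was not tested beyond these values.

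The callosum labels carry sample numbers of 2 digits (2 knockout, 2 wild-type libraries) or longer ones (4 knockout, 3 wild-type libraries), and what the format stands for is not stated. In the fit of 2-digit libraries alone the 9 log2 fold changes ran from -0.74 for Msmo1 to -0.31 for Lss, with a median of -0.55. Among the longer numbers they ran from -0.43 for Cyp51 to -0.08 for Hsd17b7, with a median of -0.33. The direction was thus the same in both subsets for each gene, and 0 of 9 passed in either. All knockout libraries lay below all wild-type libraries for 9 of 9 genes among the 2-digit numbers and for 5 of 9 among the longer ones. The share of all genes so separated was not computed within either subset. With 2 libraries against 2, such separation can readily arise by chance, and the 9 genes vary together, so these counts carry little weight. With the format as a covariate Cyp51 passed, at a log2 fold change of -0.49 (adjusted p = 0.0452).

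**Figure D3:**
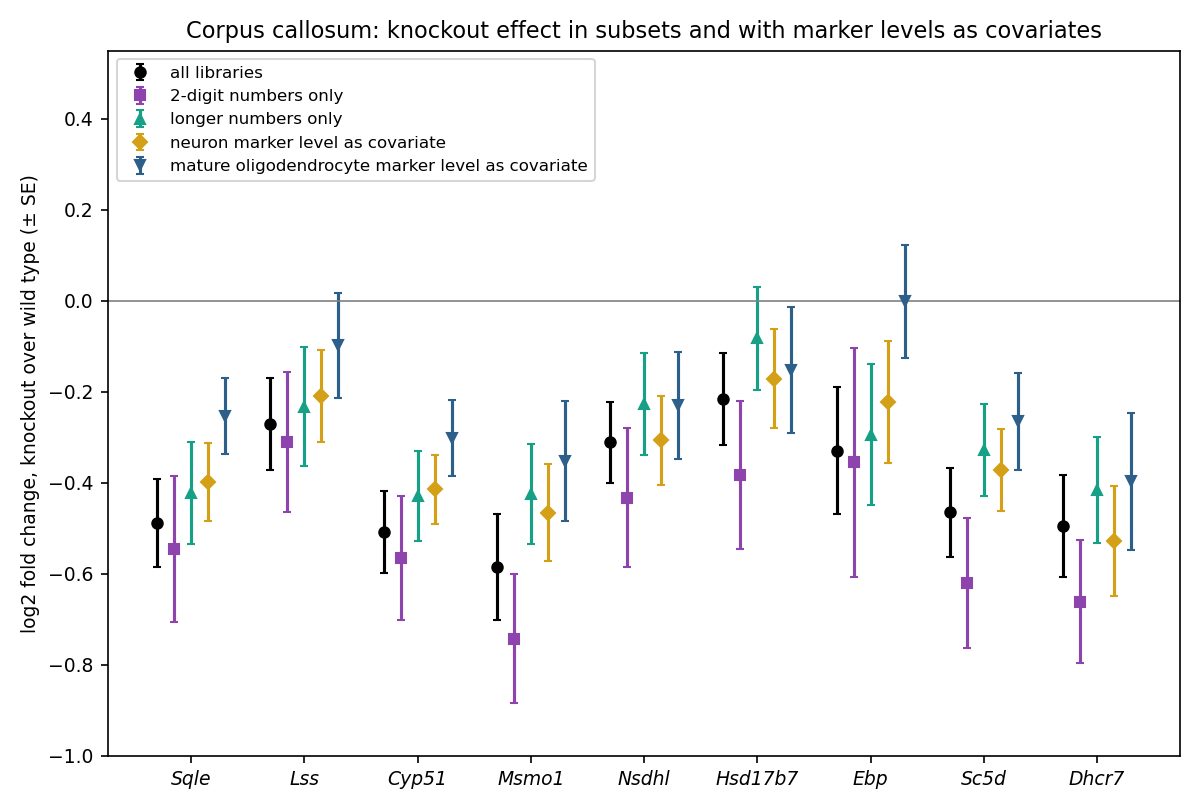
Log2 fold change of knockout over wild-type corpus callosum (y axis, ± SE) for each of the 9 genes in pathway order (x axis), with all libraries, in each subset by number format, and with the neuron or the mature oligodendrocyte marker level as a covariate. The values with all libraries run from -0.58 for Msmo1 to -0.22 for Hsd17b7, and those with the oligodendrocyte covariate lie closest to 0 for most genes, with Ebp at -0.00055.

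In optic nerve the fold changes had the same sign and were closer to 0 for 7 of the 9 genes, and 0 of 9 passed (0.0129% of the 15556 genes tested passed). Nsdhl was the single gene whose knockout libraries, at 23.6, 28.1, 29.5, 32.6 and 33.7 CPM, all lay below the wild-type libraries, at 35.0, 35.7, 40.2 and 40.6 CPM. The 2 sets were separated by a small gap, and the log2 fold change was -0.36 (SE 0.11, adjusted p = 0.845). Sc5d had 84.3, 96.3, 105, 114 and 129 CPM in knockout and 118, 133, 141 and 170 CPM in wild type, with overlap through the highest knockout and the lowest wild-type library. This was -0.41 as log2 fold change (SE 0.14, adjusted p = 0.845). Msmo1 had 127, 144, 163, 176 and 193 CPM in knockout and 187, 201, 209 and 240 CPM in wild type. Only its highest knockout library reached the wild-type range, and its log2 fold change was -0.38 (SE 0.13, adjusted p = 0.845).

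The remaining genes overlapped more widely between genotypes in this tract. Hsd17b7 was at 35.1 to 41.5 CPM in knockout and 36.5 to 50.8 CPM in wild-type libraries, or -0.24 as log2 fold change (SE 0.10, adjusted p = 0.845). Sqle was at 130 to 197 CPM in knockout and 172 to 236 CPM in wild type, and its log2 fold change was -0.22 (SE 0.13, adjusted p = 0.845). Cyp51 lay at 139 to 215 CPM in knockout and 190.5 to 268 CPM in wild type, and its log2 fold change was -0.26 (SE 0.14, adjusted p = 0.845). Both genes overlapped between genotypes in several libraries. For Dhcr7 the levels were 79.2 to 96.5 CPM in knockout and 82.5 to 122 CPM in wild type, or -0.13 as log2 fold change (SE 0.12, adjusted p = 0.863). Lss at -0.08 (SE 0.12, adjusted p = 0.927) and Ebp at -0.05 (SE 0.08, adjusted p = 0.930) had fold changes smaller than their standard errors. Ebp lay at 34.2 to 41.9 CPM in knockout and at 37.7 to 41.8 CPM in wild-type libraries.

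Over the group, 4 of 9 were lower at an unadjusted p under 0.05 (2.64% of all genes), namely Nsdhl, Sc5d, Msmo1 and Hsd17b7. DESeq2 and limma-voom also called 0 of the 9, while DESeq2 called 35 genes in all, 14 higher and 21 lower. All knockout libraries lay below all wild-type libraries in 1 of 9, against 1.21% of all genes. The sign was negative in 9 of 9 (47.2% of all genes), with a median of -0.24 against 0.01 over all genes. Mature oligodendrocyte markers were negative in 9 of 12 here (median -0.17, 0 past the test), with summed levels of 58381 to 83868 CPM in knockout and 76736 to 93552 CPM in wild-type libraries. With their level as a covariate the median of the 9 genes was -0.11, and Lss was at 0.07. Without WT_ON_719857, the wild-type library with the highest sum of the 9 genes, Lss stood at 0.03 and Dhcr7 at 0.00034.

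**Figure D4:**
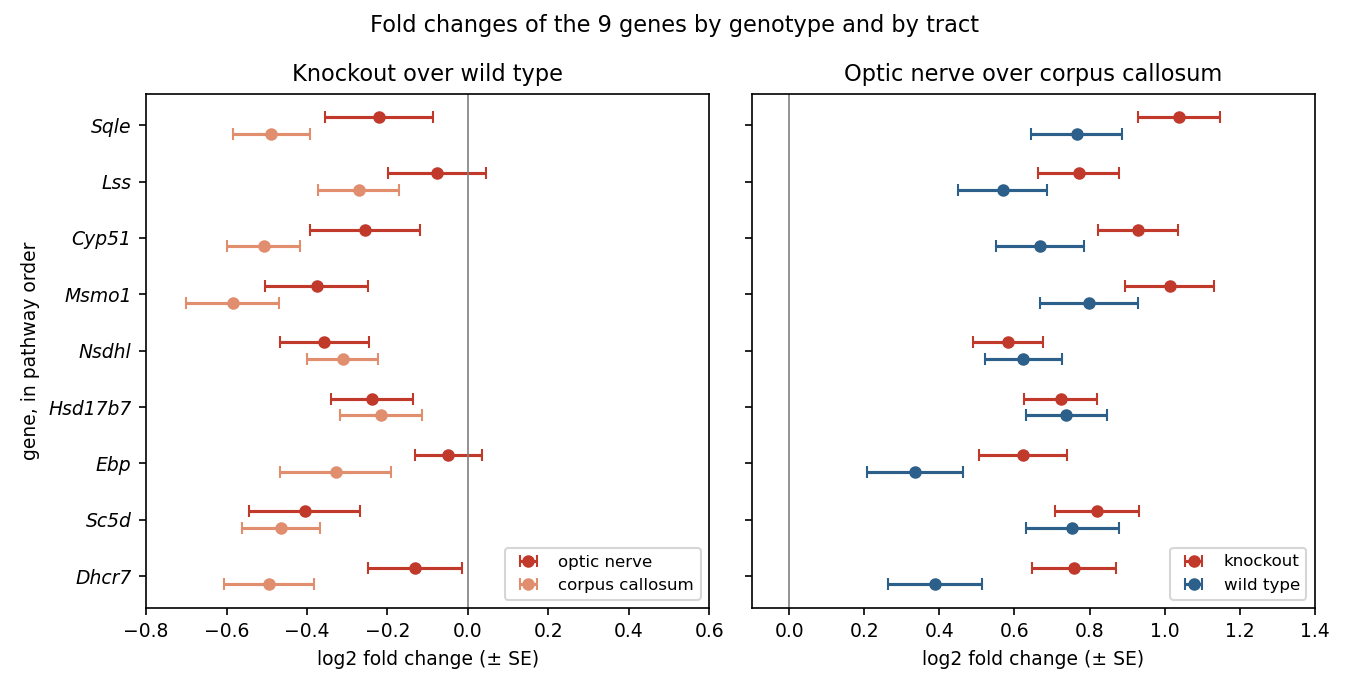
Log2 fold changes (x axis, ± SE) of the 9 genes in pathway order (y axis), on the left for knockout over wild type in optic nerve and corpus callosum, on the right for optic nerve over corpus callosum in knockout and wild type. On the left every point lies below 0, between -0.58 and -0.05. On the right every point lies above 0, between 0.34 and 1.04.

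Whether the knockout effect differed between the tracts was tested by the interaction, and 0 of 9 passed (0.0% of the 16440 genes tested; by edgeR 1123 genes had an unadjusted p under 0.05, and DESeq2 and limma-voom called 0 as well). The difference, optic nerve effect minus callosum effect, was positive for 7 of the 9 genes, with a median of 0.21 against 0.03 over all genes. It was largest for Dhcr7 at 0.37 (SE 0.17, adjusted p = 0.725), the only one of the 9 with an unadjusted p under 0.05. Ebp at 0.29 (SE 0.17), Sqle at 0.27 (SE 0.16) and Cyp51 at 0.26 (SE 0.16) had an adjusted p of 0.745 or 0.746. For Nsdhl at -0.04 (SE 0.14), Hsd17b7 at -0.02 (SE 0.15) and Sc5d at 0.07 (SE 0.17) the difference was smaller than its standard error. For the same 3 genes its sign also turned when single libraries were left out. For Msmo1, at 0.21 (SE 0.18), the difference stayed between 0.14 and 0.29 with single libraries left out. It turned, to -0.0074, in the fit of longer numbers only.

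Differences between the tracts were called throughout. All 9 genes were higher in optic nerve than in corpus callosum, in knockout and in wild-type mice, and all 9 passed in both. In knockout mice 31.9% of all 16440 genes tested passed as higher in optic nerve, and 62.9% passed in either direction. In wild-type mice those shares were 25.3% and 51.3%, so a call between the tracts was common among all genes.

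Sqle had the largest tract difference among the 9 in knockout mice, with 130, 168, 172, 174 and 197 CPM in optic nerve against 73.3 to 91.2 CPM in the 6 callosum libraries, or 1.04 as log2 fold change (SE 0.11, adjusted p = 8.0e-08). Msmo1 followed at 1.01 (SE 0.12, adjusted p = 3.3e-07), Cyp51 at 0.93 (SE 0.11, adjusted p = 2.6e-07) and Sc5d at 0.82 (SE 0.11, adjusted p = 2.6e-06). These 4 genes had no overlap between the tracts in either genotype. Lss at 0.77 (SE 0.11), Dhcr7 at 0.76 (SE 0.11), Hsd17b7 at 0.72 (SE 0.10), Ebp at 0.62 (SE 0.12) and Nsdhl at 0.58 (SE 0.09) made up the lower end of the range. The tracts overlapped for Nsdhl in knockout mice, where the highest callosum library had 23.9 CPM and the lowest optic nerve library 23.6 CPM. Every other gene had all knockout optic nerve libraries above all knockout callosum libraries (8 of 9, against 22.9% of all genes), and the median was 0.77 against -0.00085 over all genes.

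In wild-type mice Msmo1 had the largest fold change between the tracts, with 187, 201, 209 and 240 CPM in optic nerve against 103, 104, 107, 135 and 139 CPM in corpus callosum. These libraries did not overlap, and the log2 fold change was 0.80 (SE 0.13, adjusted p = 3.4e-05). Sqle was at 0.77 (SE 0.12), Sc5d at 0.75 (SE 0.12), Hsd17b7 at 0.74 (SE 0.11), Cyp51 at 0.67 (SE 0.12), Nsdhl at 0.62 (SE 0.10) and Lss at 0.57 (SE 0.12). Dhcr7 at 0.39 (SE 0.12, adjusted p = 0.0130) and Ebp at 0.34 (SE 0.13, adjusted p = 0.0348) had the smallest differences. Dhcr7 had 82.5, 90.9, 92.3 and 122 CPM in optic nerve against 67.0, 67.7, 71.4, 72.0 and 84.7 CPM in corpus callosum. Its tracts overlapped through 1 callosum library, whereas the other 8 genes did not overlap (23.1% of all genes had every optic nerve library above every callosum library). The median of the 9 was 0.67, against -0.03 over all genes.

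The call of Ebp in wild type depended on single libraries. It was lost without WT_CCg_30 (adjusted p = 0.0516), WT_CCg_685232 (adjusted p = 0.0733), WT_CCg_7198587 (adjusted p = 0.0789), WT_ON_700858 (adjusted p = 0.0511) or WT_ON_717652 (adjusted p = 0.0744). Beside these differences, summed markers of other cells also differed between the tracts. Astrocyte markers summed over 8 genes to between 7883 and 11493 CPM in optic nerve and between 2999 and 4116 CPM in corpus callosum, over both genotypes. Gfap, on this list, made up most of the optic nerve sum, at 5813 to 8860 CPM against 513 to 1042 CPM in corpus callosum. Slc1a2 went the other way, at 187 to 416 CPM in optic nerve against 1311 to 2222 CPM in corpus callosum. Of the 8 genes, 3 were called higher and 2 lower in optic nerve in wild-type mice. In knockout mice 4 were called higher and 1 lower. Mature oligodendrocyte markers in wild type were between 76736 and 93552 CPM in optic nerve and between 52330 and 83691 CPM in corpus callosum. In knockout they were between 58381 and 83868 CPM in optic nerve and between 33552 and 62668 CPM in corpus callosum. Of these 12 markers, 2 were called higher in optic nerve in wild type and 8 in knockout, with 1 called lower in each. Neuron markers were at 228 to 441 CPM in optic nerve against 1023 to 4367 CPM in corpus callosum. The part of cell makeup in the tract differences was not tested.

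Other genes of the pathway were described from lists written for its stages. Of the others after squalene, the sterol reductase genes Tm7sf2 and Lbr and the scaffold protein gene Erg28 had log2 fold changes in knockout callosum of -0.25 (SE 0.13), -0.36 (SE 0.20) and -0.21 (SE 0.08). None of these 3 passed, and in optic nerve they were at 0.00, -0.12 and -0.12. Faxdc2, a further gene on that list, was not analysed here. Between the tracts Tm7sf2 at 0.47 (SE 0.12, adjusted p = 0.00248) and Erg28 at 0.20 (SE 0.08, adjusted p = 0.0300) passed as higher in optic nerve in knockout mice, while Lbr passed in neither genotype.

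The 9 enzymes up to squalene had a similar set of values. In knockout callosum 9 of 9 were negative with a median of -0.42, 7 of 9 were lower at an unadjusted p under 0.05, and 0 passed. Hmgcs1, the synthase that feeds the pathway, was at -0.53 (SE 0.11, adjusted p = 0.139), and Fdft1, the squalene synthase, at -0.42 (SE 0.11, adjusted p = 0.247). In optic nerve 9 of 9 were negative with a median of -0.19 and 0 passed, with Idi1, the isomerase of the isoprenoid unit, at -0.48 (SE 0.17) and Hmgcs1 at -0.34 (SE 0.13), both with an adjusted p of 0.845. Higher levels in optic nerve than in corpus callosum were called for 7 of 9 in knockout mice and for 7 of 9 in wild-type mice. Hmgcs1 had the smallest p of these tract differences, at 1.22 (SE 0.11, adjusted p = 6.2e-09) in knockout and 1.02 (SE 0.12, adjusted p = 4.9e-07) in wild type.

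Genes that sense or take up sterol were less uniform. Of 12, 8 were negative and 4 positive in knockout callosum (median -0.09, 0 past the test). Insig1, which holds the SREBP complex in the endoplasmic reticulum, was at -0.51 (SE 0.10, adjusted p = 0.139). Srebf2, which codes for SREBP2, was at -0.10 (SE 0.09). In optic nerve 5 of 12 were negative (median 0.05, 0 past the test), with Insig1 at -0.03 (SE 0.16). Between the tracts 10 of 12 were called higher and 1 lower in knockout mice, with Insig2, a relative of Insig1, at 0.73 (SE 0.08). In wild-type mice 6 were called higher and 1 lower, with Insig2 at 0.78 (SE 0.09).

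Genes of sterol efflux, storage and turnover, 11 in number, had a median of -0.17 in knockout callosum over the 10 tested, with 0 past the test. Cyp27a1, which hydroxylates the cholesterol side chain, was at -0.79 (SE 0.20, adjusted p = 0.247) and Lcat, which esterifies cholesterol in lipoproteins, at -0.36 (SE 0.11, adjusted p = 0.321). In optic nerve the median was 0.12 over 11 tested, and 0 passed. Of these 11, 8 were called higher and 1 lower in optic nerve in each genotype. Lcat was at 1.84 (SE 0.10) in knockout and 1.26 (SE 0.11) in wild type, and Cyp27a1 at 2.61 (SE 0.17) in knockout and 2.03 (SE 0.18) in wild type. The lower one was Cyp46a1, the neuronal cholesterol hydroxylase, at -2.04 (SE 0.22) in knockout and -1.64 (SE 0.25) in wild type.

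The 9 genes varied together between libraries of the same group. Over the 20 libraries, each expressed as a deviation from its group mean on the log2 CPM scale, Pearson's r ran from 0.084 to 0.898 over the 36 pairs, with a median of 0.572. The highest value was that of Sqle with Cyp51 and the lowest that of Hsd17b7 with Ebp. Sqle had the highest median r with the other 8, at 0.684, and Hsd17b7 the lowest, at 0.395. The points share libraries, depth and cell makeup, and the values are descriptions.

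**Figure D5:**
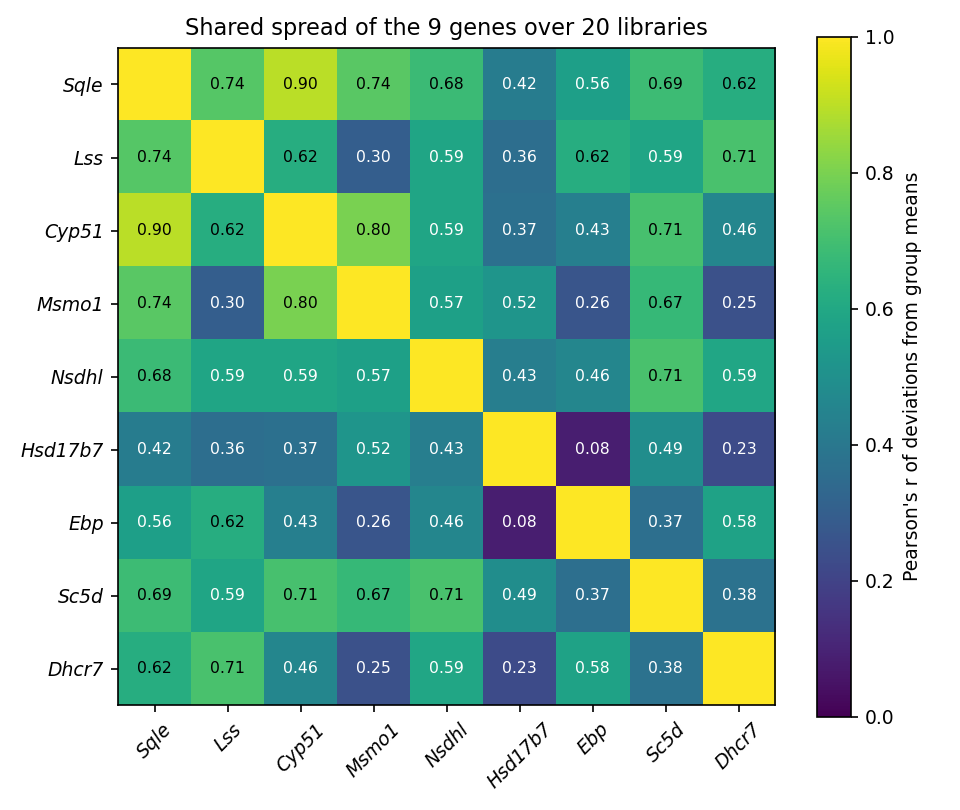
Pearson's r between each pair of the 9 genes, in pathway order on both axes, of deviations from group means (log2 CPM) over 20 libraries; brighter cells have higher r. The values run from 0.084 for Hsd17b7 with Ebp to 0.898 for Sqle with Cyp51.

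Among 11011 genes whose log2 CPM averaged 3 or more, the 10 whose deviations followed the mean profile of the 9 most closely, members left out, were Osbpl1a, Tppp, Enpp2, Epn2, Hmgcs1, Gnptab, Stmn1, Dpy19l1, Kcna6 and Aldh9a1. Their r ran from 0.889 for Osbpl1a, an oxysterol-binding protein family gene, to 0.822 for Aldh9a1. Hmgcs1, at 0.840, was the only gene of the pathway lists among the 10. Insig1, at 0.756, and Fdft1, at 0.737, came next among those lists. The 12 mature oligodendrocyte markers also had positive values, from 0.703 for Cnp to 0.433 for Opalin. The 10 neuron markers had negative values, from -0.166 for Stmn2 to -0.458 for Slc17a7. The part of cell makeup in the profile was not tested.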

How the data were processed

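Estimated counts per gene were deposited by the authors in 1 table for 20 libraries, unscaled and made from a stranded mRNA kit per the labels' protocols. The file name refers to kallisto. The build was mm10 per the submitters' processing notes, and the sources used here give neither the quantifier's version nor its annotation. Symbols, positions and lengths came from GENCODE annotation of GRCm38, which named 46005 of 46517 identifiers; 27555 also matched in version. No libraries were identical (0 pairs).

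Counts were rounded, filtered with filterByExpr (minimum count 10, total 15), scaled with TMM factors and tested with the edgeR 4.0.16 quasi-likelihood test in R 4.3.3, with Benjamini-Hochberg adjustment over all genes and a threshold of 0.05. Each tract was fitted apart for the knockout effect. The interaction came from a joint fit of all 20 libraries, as did the tract comparisons, which use the same libraries as the knockout comparisons. Log2 CPM used a prior count of 2. edgeR's common biological coefficient of variation was 20.2% in optic nerve, 23.7% in corpus callosum and 23.1% in the joint fit.

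DESeq2 1.42.0, limma 3.58.1 (voom with sample quality weights), other scaling and filters, subsets by number format, marker levels as covariates and leaving out each library were alternatives. The fits were tested on simulated data. Genes named are all 9 members, the 10 closest to their mean profile, others after squalene, and from each other pathway or marker list described up to 4 members that passed or the 2 with the smallest p; a few more, such as Srebf2, were added for their role, and some genes that this rule selects are left out here. The 9 genes, the lists and the tests were chosen with earlier results of these data known.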

Additional observations from a re-analysis of the deposited data

Results flagged for a closer look

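Among 36 sets formed by the 9 genes in the 4 groups, 2 held a library that stood apart from the others of its group, and by chance about 1 in 20 sets would be expected to hold one. Nsdhl was at 22.4 CPM in WT_CCg_7198587, while the other 4 wild-type callosum libraries lay between 24.2 and 24.7 CPM. Dhcr7 was at 84.7 CPM in WT_CCg_717652, against 67.0 to 72.0 CPM in the other 4. Without WT_CCg_7198587 the callosum log2 fold change of the 9 genes had a median of -0.48, and without WT_CCg_717652 a median of -0.43.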

How the results depend on the processing

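The direction of the callosum effect was negative in 206 of 207 alternative values of the 9 genes. The exception was Ebp at 0.087 with number format and mature oligodendrocyte level together as covariates, a fit added after seeing the data. Genes called in corpus callosum, 6 in the fit reported, were 175 by DESeq2, 2786 by limma-voom with sample quality weights, 41 in the joint fit, 2 with longer numbers only, 3 with the oligodendrocyte and 3 with the neuron covariate, 10 with the format covariate and 0 with 2-digit numbers only (also added after seeing the data). Of the 9 genes these called 5 by DESeq2, 8 by limma-voom, 1 in the joint fit (Msmo1, adjusted p = 0.0494) and 1 with the format covariate (Cyp51). Leaving out 1 library at a time gave 2 to 41 genes called there and 0 to 2 of the 9, the highest of both without WT_CCg_685232. In optic nerve, 2 genes called became 35 by DESeq2 and 1 with longer numbers only. Lss there was at 0.067 with the oligodendrocyte covariate. With single libraries left out Lss ran from -0.16 to 0.031 and Dhcr7 from -0.20 to 0.00034. For the difference between tracts in the knockout effect, Msmo1 was at -0.0074 and Sc5d at -0.040 with longer numbers only. Leaving out 1 library gave 0 to 1 genes called, and ranges of -0.011 to 0.14 for Sc5d, -0.10 to 0.015 for Hsd17b7 and -0.13 to 0.029 for Nsdhl. A rule that also asked for a fold change between the tracts of 1 or more on the log2 scale, in either direction, left 4950 genes and 2 of the 9 in knockout mice, and 4309 genes and 0 of the 9 in wild-type mice. Of 315 alternative values of the tract differences 315 were positive. Some samples carry the same number and genotype in both tracts, and the labels do not say whether these are the same mice. Deviations of same-numbered libraries correlated at 0.018, -0.15 and 0.13 in knockout and at -0.053 in wild-type mice. The tracts differ in cell type markers, so low values cannot show that the mice differ. Pairing was neither established nor excluded, and the tract tests reported treated these libraries as separate. With the number as a replicate block 7067 genes and 8 of the 9 were called in knockout mice, and Nsdhl had a log2 fold change of 0.46 (adjusted p = 0.0662). The cause of these changes was not tested.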
